A study of Mus musculus with 6 samples.

Results

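The non-clustered protocadherins are 10 genes here, Pcdh1, Pcdh7, Pcdh8, Pcdh9, Pcdh10, Pcdh11x, Pcdh17, Pcdh18, Pcdh19 and Pcdh20, out of 24594 entries in the deposited count table. The set was built round Pcdh7, which had the smallest p of all tested genes and, among called genes, the largest absolute log2 fold change, and the other 9 genes were added by family. All 10 symbols matched an entry, and 8 of them passed the filter on low counts. Because the genotype difference led to this choice, the differences of the members are given as a description of these libraries, with no p-value.

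The libraries came from nuclei of the mouse cerebellum that were sorted for NeuN, a nuclear protein of neurons, and that the labels call cerebellar granule cells. There were 3 libraries from mice homozygous for the conditional knockout allele, Ezh1(cKO/cKO);Neurod1-Cre (cKO), and 3 from mice with both wild-type alleles, Ezh1(wt/wt);Neurod1-Cre (WT). All mice were aged 7 months, and both genotypes carry Neurod1-Cre, so Cre is tied to Neurod1, a gene that granule neurons switch on early. The product of Ezh1 is a methyltransferase of the Polycomb complex PRC2 and marks histone H3 at lysine 27 on repressed genes, and the study's title concerns the upkeep of that mark in mature neurons.

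Protocadherins are membrane proteins with a row of cadherin repeats outside the cell, and they hold cells of like kind together and guide axons and synapses. The clustered ones come from tandem gene arrays and give single neurons an identity. The non-clustered ones are scattered single genes with their own cytoplasmic tails. The delta-1 group (Pcdh1, Pcdh7, Pcdh9 and Pcdh11x) has a longer row of repeats and a tail motif that binds protein phosphatase 1, and the delta-2 group (Pcdh8, Pcdh10, Pcdh17, Pcdh18 and Pcdh19) has a shorter row and tails that engage the actin-regulating WAVE complex in several members. Pcdh20 is placed differently by different authors.

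Polycomb complexes gather at promoters rich in CpG, the dinucleotide that also carries DNA methylation. The stretches before the annotated start of Pcdh7 and of 2 members that were not called are therefore shown, with each CpG in capitals. They are the 250 bases before a RefSeq start on GRCm38.p6, the assembly behind mm10, read 5′ to 3′ on the gene's strand. Pcdh7 lies at chr5:57717831-57718080 (plus strand), Pcdh9 at chr14:93890680-93890929 (minus strand) and Pcdh10 at chr3:45378148-45378397 (plus strand).
Pcdh7: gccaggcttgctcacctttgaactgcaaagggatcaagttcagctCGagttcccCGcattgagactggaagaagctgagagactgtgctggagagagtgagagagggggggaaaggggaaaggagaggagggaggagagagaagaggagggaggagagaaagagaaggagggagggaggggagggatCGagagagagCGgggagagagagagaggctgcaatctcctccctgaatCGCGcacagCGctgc
Pcdh9: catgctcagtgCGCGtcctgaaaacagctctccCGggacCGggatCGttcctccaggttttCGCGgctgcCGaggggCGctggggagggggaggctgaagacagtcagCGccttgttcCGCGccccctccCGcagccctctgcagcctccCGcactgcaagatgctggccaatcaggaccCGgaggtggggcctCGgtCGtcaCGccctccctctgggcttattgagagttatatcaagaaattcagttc
Pcdh10: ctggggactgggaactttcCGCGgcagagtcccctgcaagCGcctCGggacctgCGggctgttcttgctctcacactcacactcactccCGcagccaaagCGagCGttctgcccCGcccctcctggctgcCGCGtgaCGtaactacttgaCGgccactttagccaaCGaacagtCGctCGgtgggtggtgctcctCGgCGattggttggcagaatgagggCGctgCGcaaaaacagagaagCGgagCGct
The Pcdh7 stretch held 7 CpG in a long run of G and A, against 18 before Pcdh9 and 22 before Pcdh10, while G and C made up 58.4%, 63.6% and 63.2% of the bases. The Pcdh7 and Pcdh9 stretches lie inside the span that RefSeq gives the gene, which has further starts.

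Over the full windows of 300 bases (250 before and 50 after a start), 8 members had 9 windows in the RefSeq table, with Pcdh9 giving 2 that overlap. These held 4 CpG (Pcdh20) to 26 (Pcdh17), where the median of all 32851 windows was 7. The Pcdh7 window held 11, more than 58.6% of all windows. Among the other members only Pcdh20, which was not tested, held fewer, and Pcdh8, which was not called, held 14. A relation of CpG number to the genotype difference was not tested. The E-box letters CAGCTG, which read the same on both strands, were in 0 of the 9 member windows and in 16.3% of all windows. The letters CAGATG, on either strand, were likewise in 0 of the 9 and in 17.2% of all windows. E-boxes are the sites of basic helix-loop-helix factors such as Neurod1.

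The libraries held 6340236 to 8284768 counts. Levels are in CPM, counts per 1e+06 of the library after TMM scaling, and depend on gene length, so they are compared between genes only per kilobase. Separate animals for the libraries of a genotype are not stated in the labels, so SDs and p-values here measure the spread between these libraries. In replicate 1 of each genotype Xist, the RNA that coats an inactive X, was at 831 CPM (cKO) and 812 CPM (WT), and in the other 4 libraries it was at 1.39 to 4.46 CPM. Ezh1 itself was at 52.5, 50.9 and 55.6 CPM in the cKO libraries and at 71.0, 75.6 and 83.3 CPM in the WT libraries (log2 fold change -0.53, SE 0.10, adjusted p = 0.00672 in edgeR's quasi-likelihood test over all genes), so every cKO library was below every WT library for the targeted gene. Its deleted part is not named in the labels. The 12 granule cell markers summed to 4347 to 5151 CPM in cKO and 4547 to 4770 CPM in WT, and all were detected. The summed markers of unipolar brush cells (605 to 631 CPM in cKO and 599 to 640 CPM in WT), Purkinje cells (385 to 564 and 445 to 635 CPM), oligodendrocytes with their precursors (292 to 660 and 237 to 430 CPM), inhibitory interneurons (135 to 162 and 147 to 169 CPM), astrocytes with Bergmann glia (140 to 154 and 117 to 155 CPM), microglia (21.5 to 26.5 and 16.9 to 33.1 CPM) and vessels with meninges and choroid plexus (8.03 to 14.9 and 10.8 to 14.96 CPM) overlapped between the genotypes, and 0 markers of any of these lists were at 0 in all libraries. EdgeR and DESeq2 called 0 of these markers, 5 had an unadjusted edgeR p below 0.05, and limma-voom called 1, the brush cell marker Eomes (20.5 ± 1.56 CPM in cKO against 10.3 ± 4.93 in WT). The share of all tested genes below that unadjusted cut was not computed, so nothing is read from the 5.

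Pcdh7, a delta-1 protocadherin of brain and heart, was the member with by far the largest genotype difference. It had 1134, 1189 and 1060 counts in the cKO libraries against 155, 139 and 229 in the WT libraries. Its level was 163, 184 and 163 CPM in cKO and 23.4, 19.4 and 27.8 CPM in WT. Every cKO library was thus far above every WT library, with a wide gap between them. The means were 170 ± 11.8 CPM in cKO and 23.5 ± 4.22 CPM in WT (SD, n = 3 each), a difference of 146 CPM. The spread relative to the mean was smaller in cKO (coefficient of variation 6.91%) than in WT (17.9%). The log2 fold change was 2.85 (SE 0.11), or 7.19-fold with a 95% interval of 6.16 to 8.41. Pcdh7 was chosen for this difference in these same libraries, so the interval describes the fit and is not separate support.

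**Figure D1:**
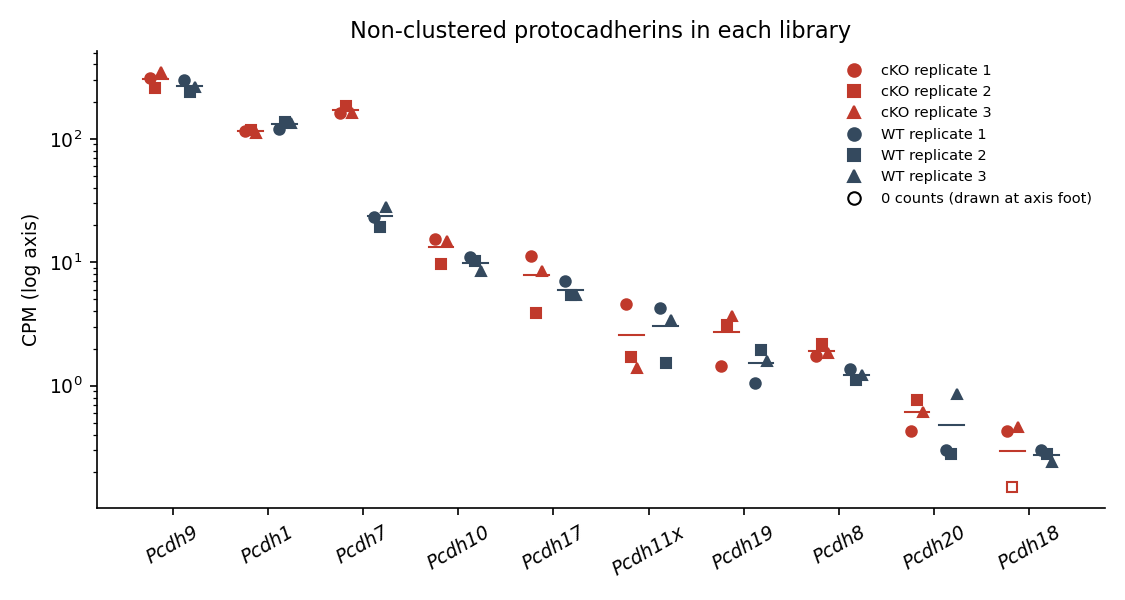
Level of each of the 10 genes in each library, in CPM on a log axis; red is cKO and dark blue WT, the symbol gives the replicate and the short line the mean of 3 libraries. Only Pcdh7, Pcdh8 and Pcdh1 have genotypes that do not overlap among the 8 tested members, and the cKO libraries of Pcdh7 sit at 163 to 184 CPM above WT libraries at 19.4 to 27.8 CPM.

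No gene among the 77 called had a larger absolute log2 fold change than Pcdh7 and none of the 13115 tested had a smaller p, as the choice of this gene implies. A gene was called where its Benjamini-Hochberg adjusted p from edgeR was below 0.05. The 2 called genes next in size were Fbxl8, an F-box gene (4.11 ± 0.24 CPM in cKO against 1.02 ± 0.36 CPM in WT, log2 fold change 2.01), and Sfmbt2, a Polycomb group gene (9.13 ± 1.97 CPM in cKO and 2.79 ± 0.45 CPM in WT, 1.71). Mapk6 was the 1 tested gene of larger absolute log2 fold change (-3.24, adjusted p = 0.565, not called). It had 158, 156 and 135 counts in cKO and 157, 200 and 4799 in WT, so its value rests on WT replicate 3; it was named after its values were seen.

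Of the 8 tested members, 1 was called higher in cKO (Pcdh7) and 0 were called lower, where 0.587% of all tested genes were called (0.328% higher and 0.259% lower). Since Pcdh7 was chosen for this difference, nothing is read from that count. DESeq2 and limma-voom also called Pcdh7 and no other member, though DESeq2 gave no adjusted p for Pcdh8, Pcdh10, Pcdh11x, Pcdh17 and Pcdh19. The genotypes did not overlap for 2 members higher in cKO (Pcdh7 and Pcdh8) and 1 lower (Pcdh1), against 16.3% of all tested genes (7.91% higher and 8.4% lower). The median log2 fold change was 0.42 over the 8 members and 0.40 over the 7 without Pcdh7, beside -0.01 over all tested genes. These medians cover only members that passed the filter, and several are low in counts.

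**Figure D2:**
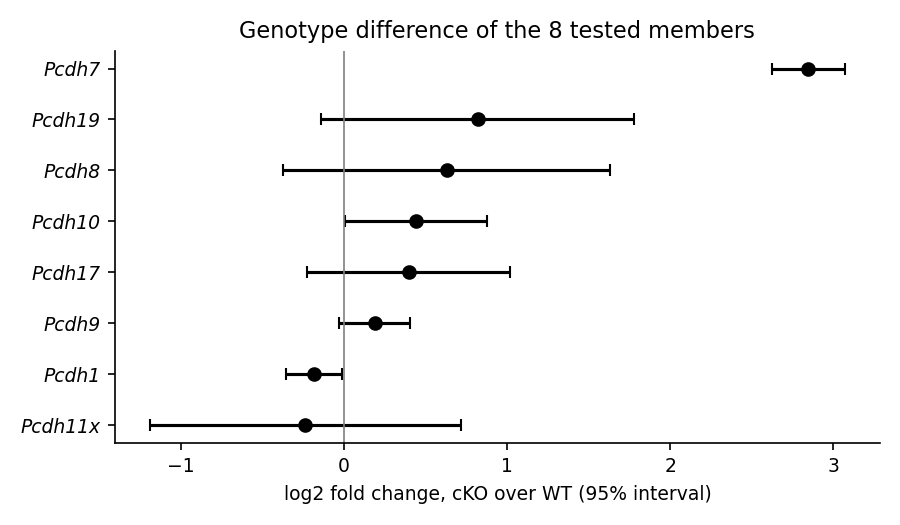
Log2 fold change of cKO over WT for the 8 tested members, with 95% intervals from the edgeR fit over all genes. Pcdh7 stands at 2.85 and the other 7 between -0.24 and 0.82, with wide intervals for the low genes.

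**Figure D3:**
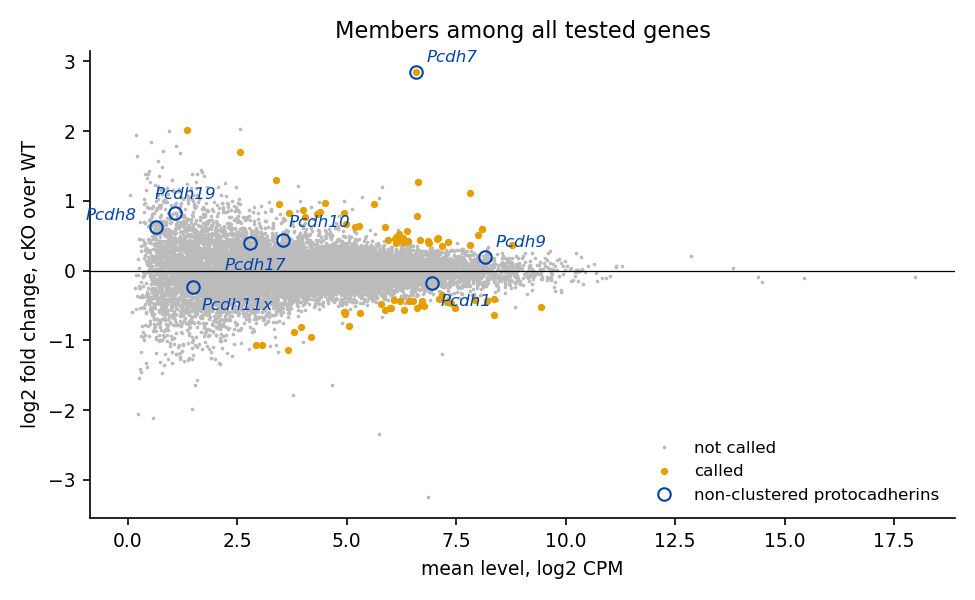
Log2 fold change of cKO over WT against mean level (log2 CPM) for all 13115 tested genes; orange points are the 77 called genes and blue rings the 8 tested members. Pcdh7 lies alone at the top at 2.85, and the other rings lie within the grey cloud of genes that were not called.

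Among the other delta-1 members, Pcdh1, an adhesion protein also known from airway epithelium, had 115, 118 and 112 CPM in cKO against 120, 138 and 135 CPM in WT. All cKO libraries were below all WT libraries, but the gap between the nearest of them was narrow. The log2 fold change was -0.18 (SE 0.08, 0.880-fold), and it was not called.

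Pcdh9, the gene with the longest span of the family (879135 bases), had 308, 259 and 351 CPM in cKO and 301, 240 and 263 CPM in WT. The genotypes overlapped, and the mean was 306 ± 46.0 CPM in cKO against 268 ± 30.8 CPM in WT (log2 fold change 0.19, SE 0.10, not called). This value was 0.08 without cKO replicate 3, 0.30 without cKO replicate 2 and 0.12 without WT replicate 2. The library with the most Pcdh9, cKO replicate 3, also had the highest sum of the 8 oligodendrocyte markers, 660 CPM. That sum was 389, 292 and 660 CPM in the cKO libraries and 430, 362 and 237 CPM in the WT libraries, and all 8 markers had positive log2 fold changes (median 0.28, 0 called by any of the 3 tools, 0 at an unadjusted p below 0.05). In both genotypes replicate 2 had the least Pcdh9. A sort for NeuN should remove oligodendrocyte nuclei, which lack it, yet all 8 of their markers were detected. Their part in the Pcdh9 level was not tested, and in such bulk libraries fewer cells of a type and less RNA per cell cannot be told apart.

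Pcdh11x, on the X chromosome, had 4.61, 1.70 and 1.39 CPM in cKO and 4.23, 1.53 and 3.398 CPM in WT. Its highest value in each genotype was that of replicate 1, the libraries with high Xist, and the genotypes overlapped widely. The log2 fold change was -0.24 (SE 0.46, not called), and it lay between -0.97 and 0.06 when single libraries were left out. The part of Xist status in these values was not tested.

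Of the delta-2 members, Pcdh10, which in mice guides axons of the basal ganglia and binds the WAVE complex, had 15.5, 9.73 and 14.9 CPM in cKO and 11.03, 10.2 and 8.50 CPM in WT. Of the cKO libraries, replicates 1 and 3 were above all WT libraries and replicate 2 was among them. The log2 fold change was 0.44 (SE 0.21, not called). Pcdh17, a protein of presynaptic and axonal membranes, had 11.2, 3.86 and 8.47 CPM in cKO and 7.10, 5.43 and 5.46 CPM in WT. Its cKO libraries held both the highest and the lowest value of all 6, and the log2 fold change was 0.40 (SE 0.30, not called). It was 0.05 without cKO replicate 1 and 0.72 without cKO replicate 2. Of the cKO libraries, replicate 2 was lowest in both genes. It also had the lowest sums of all 6 libraries for Purkinje cell markers (385 CPM) and interneuron markers (135 CPM). Its sum of granule cell markers was the highest (5151 CPM). WT replicate 3 had less Pcdh10 (8.50 CPM), with sums of 452 CPM for Purkinje cell markers and 153 CPM for interneuron markers. Purkinje nuclei largely lack NeuN, so the sort should remove most of them. The part of these cells in the levels of Pcdh10 and Pcdh17 was not tested.

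Pcdh8, or arcadlin, which neuronal activity induces in rat neurons, had 12, 14 and 12 counts in cKO and 9, 8 and 10 counts in WT. This is 1.91 ± 0.22 CPM in cKO and 1.23 ± 0.12 CPM in WT (n = 3 each), with genotypes that did not overlap. The log2 fold change of 0.63 had an SE of 0.49, since so few counts stand behind it, and the gene was not called. Pcdh19, an X-linked gene mutated in a human epilepsy, had 1.44, 3.09 and 3.69 CPM in cKO and 1.06, 1.95 and 1.58 CPM in WT. Here the lowest value of each genotype was that of replicate 1, the libraries with high Xist, and the genotypes overlapped. Pcdh19 had only 10 (cKO) and 7 (WT) counts in those libraries, and the part of Xist status was not tested. The log2 fold change was 0.82 (SE 0.47, not called), the highest after Pcdh7, and its 95% interval ran from -0.14 to 1.78.

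The 2 members below the filter were near the limit of detection. Pcdh18, whose product binds the adaptor Dab1, had 3, 0 and 3 counts in the cKO libraries and 2 in each WT library. Pcdh20 had 3, 5 and 4 counts in the cKO libraries and 2, 2 and 7 in the WT libraries. A difference between the genotypes was not detectable at this depth for either. Of the 8 tested members, 3 had a 95% interval wholly within 2-fold, namely Pcdh1, Pcdh9 and Pcdh10. For Pcdh8, Pcdh11x, Pcdh17 and Pcdh19 a change of more than 2-fold lay inside the interval.

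Per kilobase of exon (union of GENCODE M21 exons), the order of the family differed between the genotypes in the places after Pcdh9. In cKO, Pcdh9 was highest at 45.1 ± 6.79 CPM per kb, followed by Pcdh7 at 16.0 ± 1.11 and Pcdh1 at 13.1 ± 0.33. In WT, Pcdh9 was at 39.5 ± 4.54 CPM per kb, Pcdh1 at 14.9 ± 1.07 and Pcdh7 at 2.22 ± 0.40. The libraries of these 3 genes did not overlap from rank to rank within a genotype. The next genes were Pcdh10 at 0.84 ± 0.20 (cKO) and 0.62 ± 0.08 CPM per kb (WT) and Pcdh17 at 0.60 ± 0.29 and 0.46 ± 0.07 CPM per kb, whose ranges overlapped in both genotypes. The other 5 were at or below 0.42 CPM per kb on average in either genotype, and from Pcdh19 (cKO) or Pcdh8 (WT) downwards each overlapped its neighbour in this order. Among 12507 tested genes with an exon length, Pcdh7 was above 88.3% in cKO and above 31.3% in WT.

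This order rests on the length used. Nuclear RNA holds introns, and whether the authors counted exons alone is not given in the sources used here. Per kilobase of the whole gene span, Pcdh1 was highest in both genotypes, at 4.41 ± 0.11 CPM per kb in cKO and 5.01 ± 0.36 in WT. On that scale Pcdh7 was at 0.41 ± 0.03 CPM per kb in cKO (below Pcdh8 and above Pcdh9, overlapping both) and at 0.06 ± 0.01 in WT (below Pcdh17, overlapping it).

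The family as a whole was at 622, 582 and 658 CPM in the cKO libraries and 470, 418 and 447 CPM in the WT libraries. Without Pcdh7 the other 9 genes summed to 451 ± 48.6 CPM in cKO and 422 ± 24.2 CPM in WT. Most of the gap between the family sums was therefore the Pcdh7 counts themselves. Of the summed CPM per exonic kilobase, Pcdh7 made up 20.0%, 24.4% and 18.6% in the cKO libraries and 3.54%, 3.34% and 4.47% in the WT libraries. Pcdh9 made up 58.6 ± 4.44% in cKO and 67.4 ± 3.36% in WT, and Pcdh1 17.2 ± 1.75% in cKO and 25.6 ± 3.41% in WT. A share falls when another member takes more of the sum, so these last shares are not levels.

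**Figure D4:**
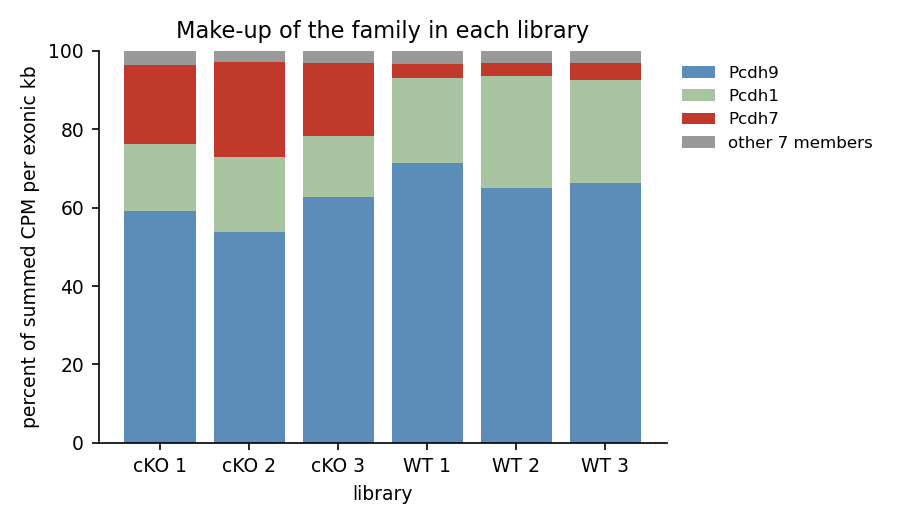
Share of each gene in the summed CPM per exonic kilobase of the 10 members, in percent, with a bar for each library. Pcdh7 (red) takes 18.6% to 24.4% of the cKO bars and 3.34% to 4.47% of the WT bars, and Pcdh9 (blue) is the largest part of every bar.

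Pcdh7 (NCBI gene 54216) spans chromosome 5, 57716145 to 58133236, and GENCODE gives it 7 transcript starts, which gene-level counts do not tell apart. Its 5′ end overlaps the long noncoding RNA gene 4932441J04Rik over 1775 bases. That gene had 6, 10 and 5 counts in the cKO libraries and 1, 2 and 2 in the WT libraries, too few to be tested. Whether the authors' counting used strand is not stated in the sources, and reads of the overlap could belong to either gene. The pseudogene Gm17977 also lies within Pcdh7 and was not analysed here.

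The tested genes nearest to Pcdh7 lay more than 3 Mb away on either side. Before it, they were Stim2, a calcium sensor of the endoplasmic reticulum, 3.595 Mb off (41.8 ± 2.56 CPM in cKO and 33.8 ± 1.78 in WT, log2 fold change 0.31, adjusted p = 0.285), Tbc1d19 at 3.81 Mb (0.06, adjusted p = 0.919) and the Notch effector gene Rbpj at 4.06 Mb (0.10, adjusted p = 0.838). After it came Arap2 at 4.47 Mb (0.05, adjusted p = 0.938), Nwd2 at 5.52 Mb (0.35, adjusted p = 0.475) and 0610040J01Rik at 5.68 Mb (-0.14, adjusted p = 0.925). None of these 6 was called by edgeR. The cKO libraries of Stim2 were all above its WT libraries, as for 7.91% of all tested genes.

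**Figure D5:**
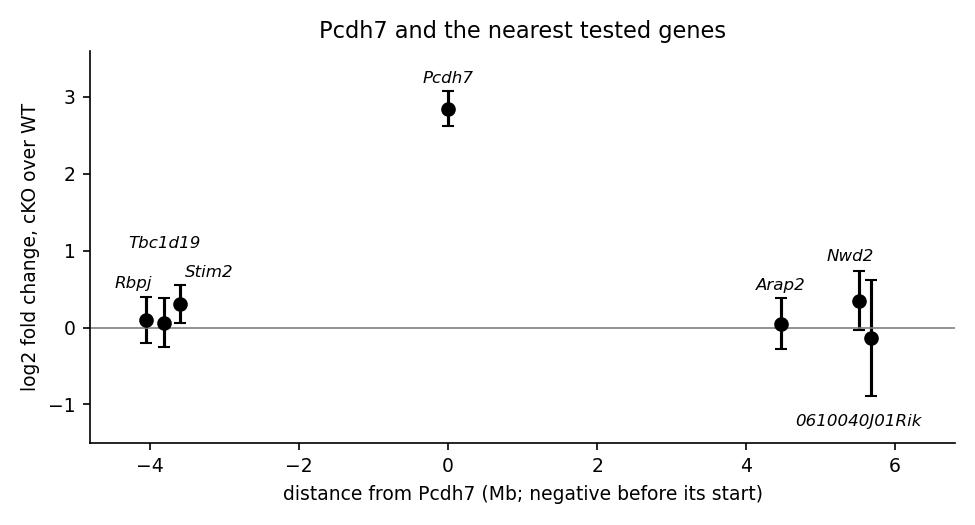
Log2 fold change of cKO over WT with 95% intervals for Pcdh7 and the 3 nearest tested genes on each side, against distance from Pcdh7 in Mb. Pcdh7 is at 2.85 and its neighbours are between -0.14 and 0.35.

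The genes whose levels over the 6 libraries were most like Pcdh7, among 8038 other genes averaging 10 CPM or more, were Trpm4 (Pearson r of log2 CPM 0.995), Ralgps1 (0.994), Sec24b (0.994), Igf1r (0.992) and Akap1 (0.989). Trpm4, a cation channel gene, had 27.9, 27.5 and 27.6 CPM in cKO and 19.7, 18.1 and 20.1 CPM in WT. Akap1, which encodes an anchor of protein kinase A at mitochondria, had 84.8, 91.7 and 82.2 CPM in cKO against 59.4, 58.9 and 61.5 CPM in WT (log2 fold change 0.52, adjusted p = 0.00456), and it was the only called gene of the 5. For all 5 the genotypes did not overlap. Of all tested genes, 16.3% did not overlap and 0.587% were called. The 5 were picked for likeness to Pcdh7, which favours such a gap, so nothing is read from either count. Such an r over 6 libraries that fall into 2 genotypes reflects mainly the gap between them, and the sizes of the differences were much smaller than that of Pcdh7, with log2 fold changes of 0.12 (Igf1r) to 0.52.

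The other cadherins and the known partners of these proteins were counted on lists that include genes of every direction. EdgeR called 0 genes in each of the 7 lists, where 0.587% of all tested genes were called. The share of all tested genes with an unadjusted p below 0.05 was not computed, so nothing is read from the counts of such genes. Among classical and related cadherins, 16 of 22 were tested, 9 with positive and 7 with negative log2 fold changes (median 0.06), DESeq2 and limma-voom called 0, and 2 had an unadjusted p below 0.05. These 2 were Cdh13, a cadherin without a cytoplasmic tail (5.31 ± 2.41 CPM in cKO and 3.03 ± 0.42 in WT, log2 fold change 0.82, adjusted p = 0.341), and N-cadherin, Cdh2, which pairs with Pcdh8 in rat and Pcdh19 in zebrafish (68.5 ± 4.40 CPM in cKO and 58.3 ± 8.11 in WT, 0.23, adjusted p = 0.383).

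Of the large cadherins of the Fat, Dachsous and Celsr families with the calsyntenins, 12 of 13 were tested, with 8 positive and 4 negative (median 0.05) and 3 at an unadjusted p below 0.05. Fat3, which shapes neuronal dendrites, had 70.2 ± 13.5 CPM in cKO and 51.5 ± 4.15 in WT (log2 fold change 0.45, adjusted p = 0.0829). DESeq2 called it (adjusted p = 0.0459), as the only gene of these lists called by any of the 3 tools, and limma-voom called 0. Dchs1, a ligand of Fat4, had 10.9 ± 0.30 CPM in cKO and 6.59 ± 1.96 in WT (0.71, adjusted p = 0.185). Of the further protocadherin-named and cadherin-related genes, 3 of 8 were tested, with 0 called by the 3 tools and 0 at an unadjusted p below 0.05. Among them the hair cell tip-link gene Pcdh15 had 16.1 ± 5.18 CPM in cKO and 12.98 ± 1.18 in WT (0.31, adjusted p = 0.600) and Cdhr2, a cadherin of intestinal microvilli, 4.68 ± 1.56 and 3.73 ± 0.68 CPM (0.34, adjusted p = 0.750).

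Catenins link classical cadherins to actin. All 9 were tested, 6 positive and 3 negative (median 0.07), with 0 called by the 3 tools and 2 at an unadjusted p below 0.05, Ctnna3 (50.3 ± 5.11 CPM in cKO and 37.8 ± 2.50 in WT, 0.41, adjusted p = 0.111) and Ctnna1 (18.6 ± 1.38 CPM in cKO and 24.1 ± 1.11 in WT, -0.37, adjusted p = 0.279). A list of 6 genes held the catalytic subunits of protein phosphatase 1, which binds delta-1 tails, and Set, Taf1 and Nap1l1; all 6 were tested, 1 positive and 5 negative (median -0.21). None was called by the 3 tools and 1 had an unadjusted p below 0.05, Ppp1cc (14.8 ± 1.67 CPM in cKO and 19.1 ± 2.14 in WT, -0.37, adjusted p = 0.369), while Ppp1cb had 29.6 ± 1.43 and 34.6 ± 1.997 CPM (-0.22, adjusted p = 0.512). The summed level of these 6 was 199 to 202 CPM in cKO and 213 to 216 CPM in WT, and that of the 9 catenins was 918 to 929 CPM in cKO and 864 to 903 CPM in WT. Of single tested genes 16.3% did not overlap between the genotypes, and no such share was computed for sums. The sums of the other 5 lists of cadherins and partners overlapped between the genotypes.

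All 9 subunits of the WAVE complex, through which several delta-2 tails reach actin, were tested, 4 positive and 5 negative (median -0.01), with 0 called by the 3 tools and 1 at an unadjusted p below 0.05, Wasf2 (30.9 ± 1.34 CPM in cKO and 25.6 ± 1.79 in WT, 0.27, adjusted p = 0.409). Cyfip2 had 239 ± 14.8 CPM in cKO and 251 ± 9.25 in WT (-0.07, adjusted p = 0.781). Of 15 other partners of these proteins, 6 were positive and 9 negative (median -0.02), with 0 called by the 3 tools and 0 under an unadjusted p of 0.05. First by p were Nono, a nuclear RNA-binding protein gene (21.1 ± 2.06 CPM in cKO and 25.1 ± 2.54 in WT, -0.25, adjusted p = 0.526), and the actin regulator gene Enah (81.2 ± 3.11 CPM in cKO and 74.7 ± 3.32 in WT, 0.12, adjusted p = 0.656).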

How the data were processed

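Nuclear RNA of sorted NeuN-positive cerebellar nuclei was measured in 3 cKO and 3 WT libraries, grouped by the genotype label. Per the labels' protocols, nuclei were fixed in formaldehyde and libraries made with the NEBNext Ultra II RNA kit. The authors deposited whole-number counts per gene, not normalized; per the submitters' processing notes, Subread and mm10 were used. Version, annotation, strand and multimapping settings were not given in the sources used here. Of 24594 entries, named by NCBI gene identifier, 24570 matched RefSeq GRCm38.p6, which gave symbols and positions.

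From the counts, filterByExpr kept 13115 genes. They were scaled by TMM (factors 0.982 to 1.02) and compared between genotypes by the robust quasi-likelihood test of edgeR 4.0.16 (R 4.3.3), over all 6 libraries with no other term (two-sided, Benjamini-Hochberg adjusted over all tested genes, threshold 0.05). Levels are CPM (counts per 1e+06 of the TMM-scaled library), means are ± SD over 3 libraries, and log2 fold changes are cKO over WT. The unmatched and dominant entries stayed in the library sizes (4 entries above 2% of counts held 32.7% to 35.8% of a library). The code was tested on simulated counts. Alternatives were other scalings, no filter, DESeq2 1.42.0, voom of limma 3.58.1, a replicate block and libraries left out. The rule for names took all members and Ezh1, called genes next to Pcdh7 in size, its neighbours, the 5 genes most like it (passing over predicted models), and from each other list up to 4 called genes or, with none called, the 2 of smallest p. Markers are given by their sums. The members and lists were chosen with earlier results of these data known.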

Additional observations from a re-analysis of the deposited data

How the results depend on the processing

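Pcdh7 was the 1 member called under all 14 alternatives, with log2 fold changes of 2.72 to 2.99 over them and of 2.85 with the replicate block. Pcdh7 was chosen for its difference in these same libraries, so these calls describe the processing and are not separate support. The other 7 tested members were called in none, counting only adjusted p-values that a tool gave. Of these, 6 kept the sign of their log2 fold change throughout, and Pcdh11x turned to 0.052 without WT replicate 1 and to 0.060 without cKO replicate 3 (-0.97 without cKO replicate 1, -0.69 without the replicate 1 libraries of both genotypes). The number of genes called over the whole table was less stable. It was 77 as reported, 277 with no filter on low counts, 40 without the replicate 1 libraries of both genotypes, and 13 to 249 when single libraries were left out (13 without WT replicate 3, 14 without cKO replicate 1, 18 without WT replicate 2, 150 without cKO replicate 2 and 249 without WT replicate 1). The cause was not tested. Scaling by library size alone moved the split to 69 higher and 32 lower from 43 and 34. With the replicate block 90 genes were called. Same-numbered libraries correlated at 0.151, 0.005 and -0.038 in their deviations from the genotype means, so the numbers were not taken to pair them. At this depth the members below about 20 counts per library (Pcdh8, Pcdh18, Pcdh20 and in part Pcdh11x and Pcdh19) allow no statement on differences near 2-fold.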
